A study of Mus musculus with 41 samples.

Results

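Mia1, 3110079O15Rik, Shisa2, Atp1b1, Sox9 and Sox10 are 6 of the 20913 genes tested on arrays of Trp53-null mammary tumors of the mouse, and they were followed here through every tumor. They were chosen by earlier results of the same arrays, in which several of them were low in spindle cell tumors, so their difference between histologies is given as a description and supports nothing. The study transplanted fragments of mammary duct from Trp53-null female BALB/c donors into the cleared fat pads of wild type female BALB/c mice, so that the epithelium lacked Trp53 in every group while stroma, vessels and immune cells of the host kept it. The recipients received a low fat diet throughout (LFD), a high fat diet throughout (HFD), a high fat diet in puberty followed by a low fat diet (HFD-LFD), or the reverse (LFD-HFD), and a tumor was early or late according to whether it arose before or after 1 year. RNA of each of 41 tumors was hybridized beside Universal Mouse Reference RNA, a pool from mouse cell lines. The 29 epithelial tumors, called variable in the sample labels, were 14 early and 15 late ones, and the regimens contributed 8 (LFD), 8 (HFD), 7 (HFD-LFD) and 6 (LFD-HFD). Among 12 spindle cell tumors 3 arose early and 9 late, and every regimen contributed 3. The fragments came from several donors, and whether tumors with a shared label number grew in the same mouse is not stated.

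Sox9 and Sox10 are related transcription factors of the SoxE group. Sox9 directs cartilage formation and is active in many epithelial progenitors, and Sox10 is needed for Schwann cells and melanocytes and is also expressed in mammary epithelium. Mia1, now named Mia, encodes a secreted protein known from cartilage and melanoma, and 3110079O15Rik, now named Snorc, encodes a membrane proteoglycan of cartilage. Shisa2 encodes a protein that holds Wnt and Fgf receptors back in the endoplasmic reticulum, and Atp1b1 encodes the beta subunit of the sodium pump of epithelial and other cells. In tumors of this kind the spindle cell form is known for weak epithelial and strong mesenchymal features.

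Tumors go by their label names, which the plots give without the prefix MSU_. Each gene was read by 1 probe. On the NCBI37/mm9 build given in the scanner files, the probes lie at chr7:27964763-27964822 on the minus strand for Mia1, chr1:89371962-89372021 on the plus strand for 3110079O15Rik, chr14:60250369-60250428 on the plus strand for Shisa2, chr1:166368263-166368322 on the minus strand for Atp1b1, chr11:112648809-112648868 on the plus strand for Sox9 and chr15:78985518-78985577 on the minus strand for Sox10. Their place within exons was not looked up. No probe was saturated on any array, and all 6 were well above background in the tumor channel of every epithelial tumor and of every spindle cell tumor, except Shisa2, which was so in 11 of 12. The Sox9 probe is printed in 10 spots, whose log2 ratios within an array had a median standard deviation of 0.078. In epithelial tumor MSU_60L the spots of Mia1, 3110079O15Rik and Atp1b1 were marked as outliers and left missing, so these genes have 28 epithelial values.

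Because 5 of the 6 genes varied together in spindle cell tumors, as described further on, the promoters of 3 of them that RefSeq gives for the GRCm38.p6 build are shown, each as the 250 bases before the start of the gene on the strand of the gene. They were searched on both strands for ACAAAG and ACAATG, which match the core that Sox proteins bind, and for TATAAA. Capitals mark a match, and none of the motifs overlapped another match.
Mia1, chr7:27181150-27181399, minus strand: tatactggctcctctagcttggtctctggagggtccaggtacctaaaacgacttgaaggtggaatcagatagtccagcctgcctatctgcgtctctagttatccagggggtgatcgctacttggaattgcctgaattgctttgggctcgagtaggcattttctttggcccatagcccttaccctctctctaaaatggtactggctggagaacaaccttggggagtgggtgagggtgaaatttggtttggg
Shisa2, chr14:59625031-59625280, plus strand: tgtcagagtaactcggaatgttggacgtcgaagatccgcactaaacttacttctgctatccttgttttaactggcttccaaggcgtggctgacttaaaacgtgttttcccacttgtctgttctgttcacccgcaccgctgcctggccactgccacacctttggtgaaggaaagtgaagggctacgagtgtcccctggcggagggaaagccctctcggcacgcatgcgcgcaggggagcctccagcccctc
Atp1b1, chr1:164458356-164458605, minus strand: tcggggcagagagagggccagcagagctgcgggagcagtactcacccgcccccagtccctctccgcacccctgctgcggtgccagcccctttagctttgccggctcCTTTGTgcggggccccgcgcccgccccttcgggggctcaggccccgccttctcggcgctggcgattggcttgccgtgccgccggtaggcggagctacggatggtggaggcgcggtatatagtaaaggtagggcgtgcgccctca
The Atp1b1 promoter held 1 ACAAAG, read on the opposite strand, and the promoters of Mia1 and Shisa2 held no match. Of the 32851 promoters in the table, 16.5% held ACAAAG, 10.7% held ACAATG and 12.4% held TATAAA in the same window. The Atp1b1 promoter was rich in G and C at 70.4% with 24 CpG, and those of Shisa2 and Mia1 had 56% with 14 and 50.4% with 4, against medians of 52.4% and 6 over all promoters. A match is a description of the letters and not of binding.

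Values are log2 ratios of the processed Cy5 over the processed Cy3 signal, tumor over reference. Per the labels the tumor was in Cy5, whereas the methods name Cy5 as the dye of the reference, so the direction used here, that of the labels, opposes the methods. On each of the 41 arrays the Y-linked genes Ddx3y and Eif2s3y, absent from female mice, had the stronger signal in Cy3, and across arrays the genes in hand varied more in Cy5, with standard deviations of 1.19 to 2.75 on the log2 scale, than in Cy3, with 0.358 to 0.963. The tumors lay on 11 slides, of which 8 held epithelial tumors and 3 of these held both early and late ones. Within LFD and within HFD-LFD, early and late epithelial tumors were on different slides. Epithelial tumors of different regimens shared no slide, except that slide 1 held HFD and LFD-HFD tumors. Onset within LFD or HFD-LFD and adult diet therefore cannot be told apart from slide. Nor can any contrast between 2 regimens of epithelial tumors except LFD-HFD minus HFD. On slide 1, the only slide that these 2 regimens shared, the LFD-HFD tumors were early and the HFD tumors late. There this contrast cannot be told apart from onset. Scans of spindle cell tumors made up 1 of 3 scan sessions, which held no epithelial tumor and used another version of the scanner software, so histology, session and software cannot be told apart. Between 52.4% and 94.9% of probes were well above background in Cy5 on epithelial arrays, and between 59.1% and 72.7% on spindle cell arrays. Precision is limited by the number of arrays. For the HFD tumors MSU_40R4A, MSU_57R and MSU_65R the deposited matrix carries other labels than the scanner files, and those of the scanner files were kept. The highest correlation between 2 arrays across genes was 0.954. The Trp53 probe read between -2.25 and 3.74 on the log2 scale in epithelial tumors and between 0.08 and 1.95 in spindle cell tumors, and whether it lies in the deleted part was not known.

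In epithelial tumors the Sox factors and Mia1 stood above the reference, and 3110079O15Rik and Atp1b1 mostly below it. Sox10 had a log2 ratio of 2.89 ± 1.02 (SD, n = 29), with a lowest value of -1.18, a median of 3.11 and a highest of 3.85. The values were tightly packed, and 26 of 29 lay above 2, the others being MSU_66L with 1.67, MSU_17R with 0.49 and MSU_108R with -1.18. Sox9 had 2.16 ± 1.23 (SD, n = 29), from -2.45 in MSU_13L over a median of 2.33 to 4.43 in MSU_19R. Mia1 had 1.99 ± 1.28 (SD, n = 28), from -0.62 over a median of 2.17 to 4.21. The highest Mia1 value belonged to MSU_108R, the tumor with the lowest Sox10. Shisa2 was the least variable, with 0.85 ± 0.76 (SD, n = 29), from -0.74 over a median of 1.08 to 1.77. Atp1b1 had -1.01 ± 1.33 (SD, n = 28), from -3.59 over a median of -1.17 to 2.60, again with MSU_108R at the top. The cartilage gene 3110079O15Rik spread most, with -0.69 ± 2.24 (SD, n = 28), from -4.64 in MSU_108R over a median of -1.45 to 3.72 in MSU_57R.

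**Figure D1:**
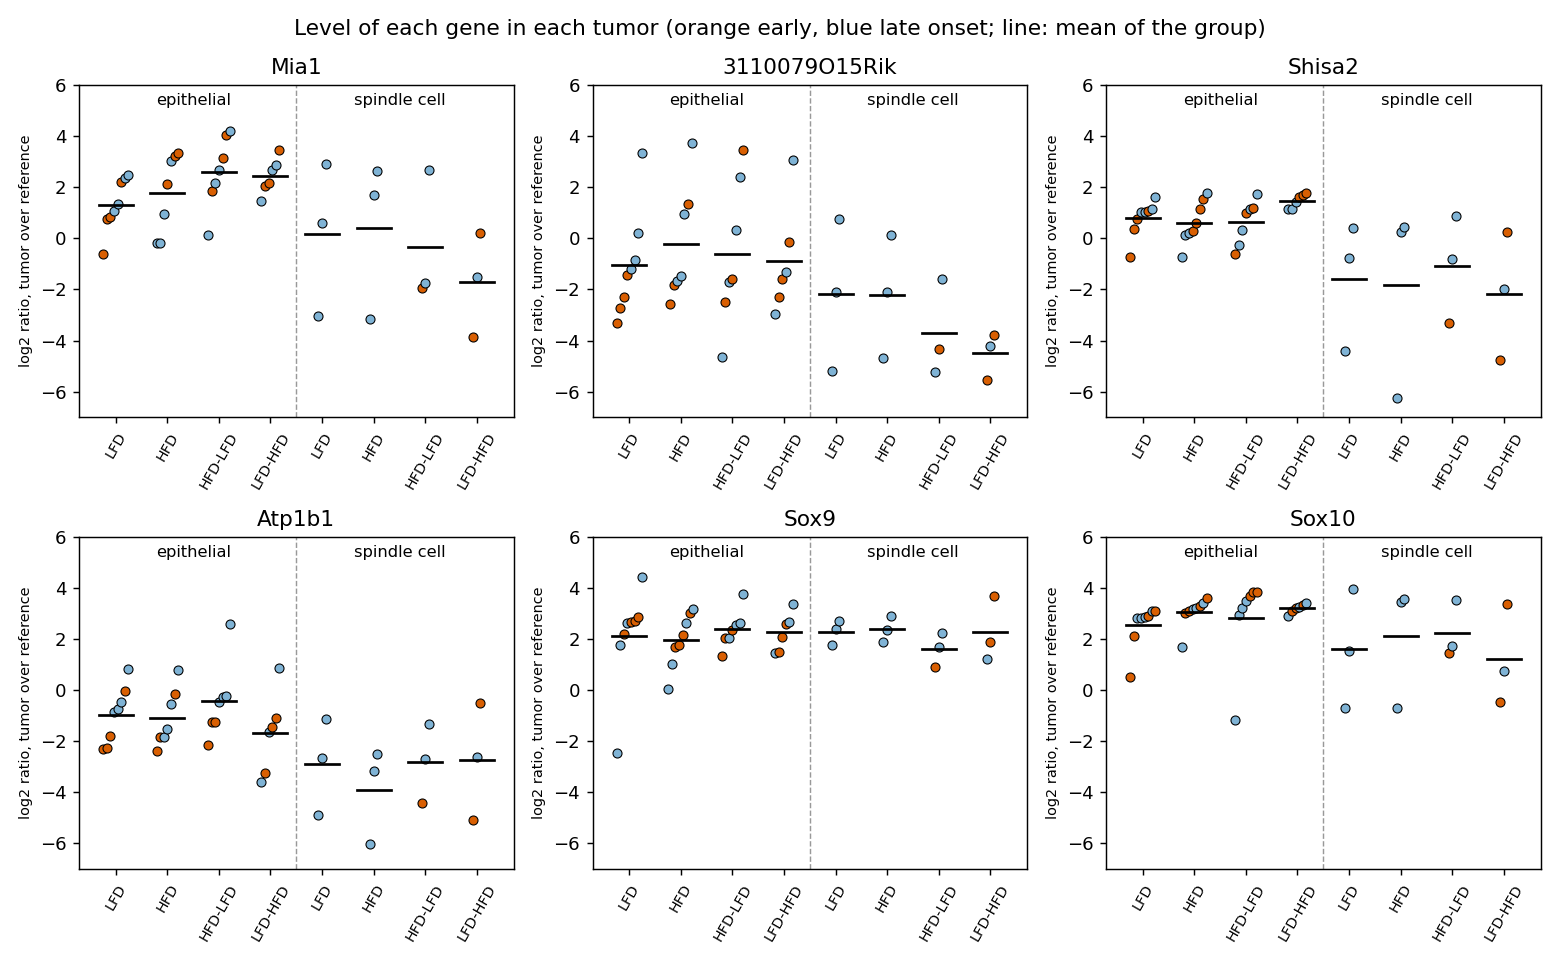
Log2 ratio, tumor over reference, of each gene in each tumor by histology and dietary regimen. Points are tumors, orange for early and blue for late onset, and lines are group means, from 6 to 8 tumors per epithelial regimen (1 fewer in HFD where MSU_60L is missing) and 3 per spindle cell regimen. The lowest spindle cell values lie below every epithelial one for Mia1, Shisa2, Atp1b1 and, by less, 3110079O15Rik, and not for Sox9 or Sox10.

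In spindle cell tumors the same genes were lower on average but very unequal from tumor to tumor, and Sox9 was not lower. Mia1 had a log2 ratio of -0.38 ± 2.47 (SD, n = 12), ranging from -3.85 to 2.91, which is 2.36 lower than in epithelial tumors (standard error 0.57). 3110079O15Rik had -3.15 ± 2.13 (SD, n = 12), ranging from -5.55 to 0.74, a difference of -2.46 (standard error 0.73). Shisa2 had -1.67 ± 2.43 (SD, n = 12), ranging from -6.23 to 0.87, a difference of -2.52 (standard error 0.48), and all 12 values lay below the epithelial median. Atp1b1 had -3.08 ± 1.71 (SD, n = 12), ranging from -6.01 to -0.50, a difference of -2.07 (standard error 0.48). Sox10 had 1.78 ± 1.77 (SD, n = 12), ranging from -0.69 to 3.94, a difference of -1.10 (standard error 0.42). Sox9 had 2.13 ± 0.75 (SD, n = 12), ranging from 0.92 to 3.67, a difference of -0.03 (standard error 0.37), so a name that calls all 6 genes spindle-low goes against the Sox9 values.

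Of the 6 genes, 4 were called between histologies at an adjusted p under 0.05 by limma, Mia1, 3110079O15Rik, Shisa2 and Atp1b1, all lower in spindle cell tumors. Of all genes 20.2% were called in either direction and 12.2% were called lower. The genes were selected on this contrast, so nothing is read from their count. In the reference channel alone, which holds the same RNA on every array, spindle cell arrays differed from epithelial ones by -0.95 on the log2 scale for Sox10, by -0.60 for 3110079O15Rik, by -0.35 for Mia1, by 0.24 for Sox9, by 0.06 for Shisa2 and by -0.03 for Atp1b1. In the tumor channel alone the difference was -2.05 for Sox10, -3.06 for 3110079O15Rik and -2.72 for Mia1, each larger than in the ratio. It was -2.46 for Shisa2 and -2.10 for Atp1b1, close to their ratios, and 0.21 for Sox9. In a bulk tumor, fewer cells that express a gene and less of its RNA per cell cannot be told apart.

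The low values fell in the same spindle cell tumors. MSU_M63L, MSU_M33R and MSU_M84R each lay below every epithelial tumor for 4 genes, Mia1, 3110079O15Rik, Shisa2 and Atp1b1, and these were also the tumors with the lowest Sox10, at -0.69, -0.68 and -0.48. They came from HFD, LFD and LFD-HFD mice, and 1 of them, MSU_M84R, was early. MSU_M129L and MSU_M118R lay below every epithelial tumor for 3 genes, MSU_M76R for 2 and MSU_M32L for 1. MSU_M54R, MSU_M56LA, MSU_M128L, MSU_M18L and MSU_M86R did so for none. Counted by gene, 7 of 12 spindle cell tumors were below the whole epithelial range for Shisa2, 6 for Mia1, 4 for 3110079O15Rik, 4 for Atp1b1 and 0 for Sox9 and Sox10, the last because MSU_108R sets the lower end of the epithelial range at -1.18.

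**Figure D2:**
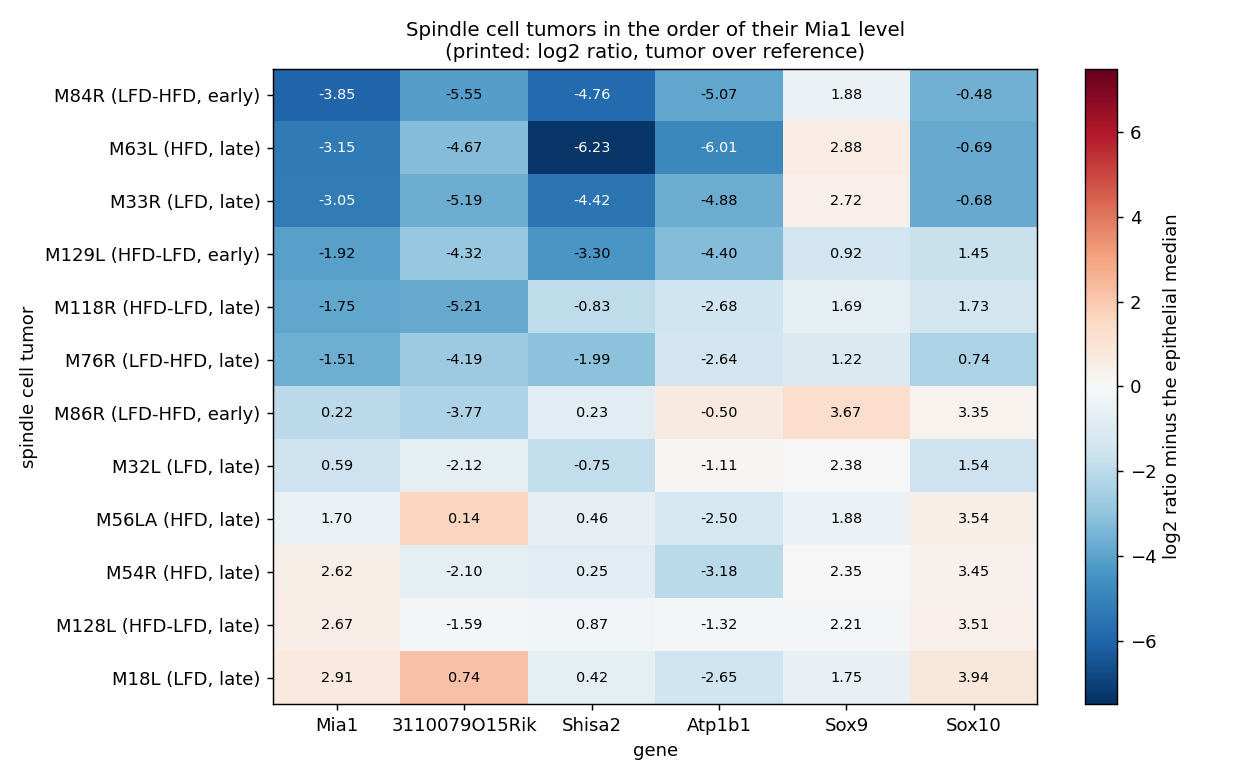
The 12 spindle cell tumors (rows, with regimen and onset) in the order of their Mia1 level, with the log2 ratio of each gene printed and the color giving its distance from the epithelial median. MSU_M84R, MSU_M63L and MSU_M33R are low for Mia1, 3110079O15Rik, Shisa2, Atp1b1 and Sox10 together, and the Sox9 column shows no such order.

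Sox10 stood at 3.94 in MSU_M18L, 3.54 in MSU_M56LA, 3.51 in MSU_M128L, 3.45 in MSU_M54R and 3.35 in MSU_M86R. Mia1 in these 5 tumors was 2.91, 1.70, 2.67, 2.62 and 0.22. The first of these Sox10 values lies above the highest epithelial one, the others lie in the upper part of the epithelial range, and the Mia1 values lie within theirs. In the others Sox10 was 1.73 in MSU_M118R, 1.54 in MSU_M32L, 1.45 in MSU_M129L and 0.74 in MSU_M76R, with Mia1 at -1.75, 0.59, -1.92 and -1.51. The largest gap between neighboring Sox10 values was 1.62 within a range of 4.63.

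Across the 12 spindle cell tumors 9 of the 15 pairs of genes by Pearson's r, and 8 by Spearman's rho, were correlated at an adjusted p under 0.05 (permutation test with 100000 permutations, Benjamini-Hochberg over 15 pairs), and the 9 were among the 10 pairs without Sox9. Shisa2 and Sox10 had a Pearson r of 0.94 and a Spearman rho of 0.95 (adjusted p = 0.000375 and 0.0002), and r was 0.92 without the 2 tumors farthest from the median. Mia1 and Sox10 had an r of 0.93 and a rho of 0.91 (adjusted p = 0.000412 and 0.000488), and 0.91 without those farthest 2. Mia1 also followed 3110079O15Rik and Shisa2, each with an r of 0.90 (adjusted p = 0.000375 and 0.000412) and rho of 0.93 and 0.94 (adjusted p = 0.0002 for both). Shisa2 and Atp1b1 had an r of 0.88 and a rho of 0.74 (adjusted p = 0.00087 and 0.016). The weakest of the 10 pairs was 3110079O15Rik with Atp1b1, with an r of 0.50 and a rho of 0.62 (adjusted p = 0.152 and 0.0559).

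The relations of Atp1b1 with Sox10 and Mia1 did not pass in every setting. Without the 2 tumors farthest from the median the r of Atp1b1 and Sox10 fell from 0.74 to 0.55 (adjusted p = 0.0152 and 0.151), and that of Mia1 and Atp1b1 was 0.69 and then 0.68 (adjusted p = 0.0264 and 0.0592). Leaving out any 1 of MSU_M128L, MSU_M33R, MSU_M63L or MSU_M84R took the pair of Mia1 and Atp1b1 out of the pairs that passed, with r from 0.63 to 0.65 and adjusted p from 0.0538 to 0.0685, and leaving out MSU_M63L did the same for Atp1b1 and Sox10, with an r of 0.66 (adjusted p = 0.0575). Sox9 pairs had r between -0.06 and 0.18. With each value centred on the mean of its slide, 9 pairs again passed and r was 0.94 for Shisa2 and Sox10 and 0.92 for Mia1 and Sox10.

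**Figure D3:**
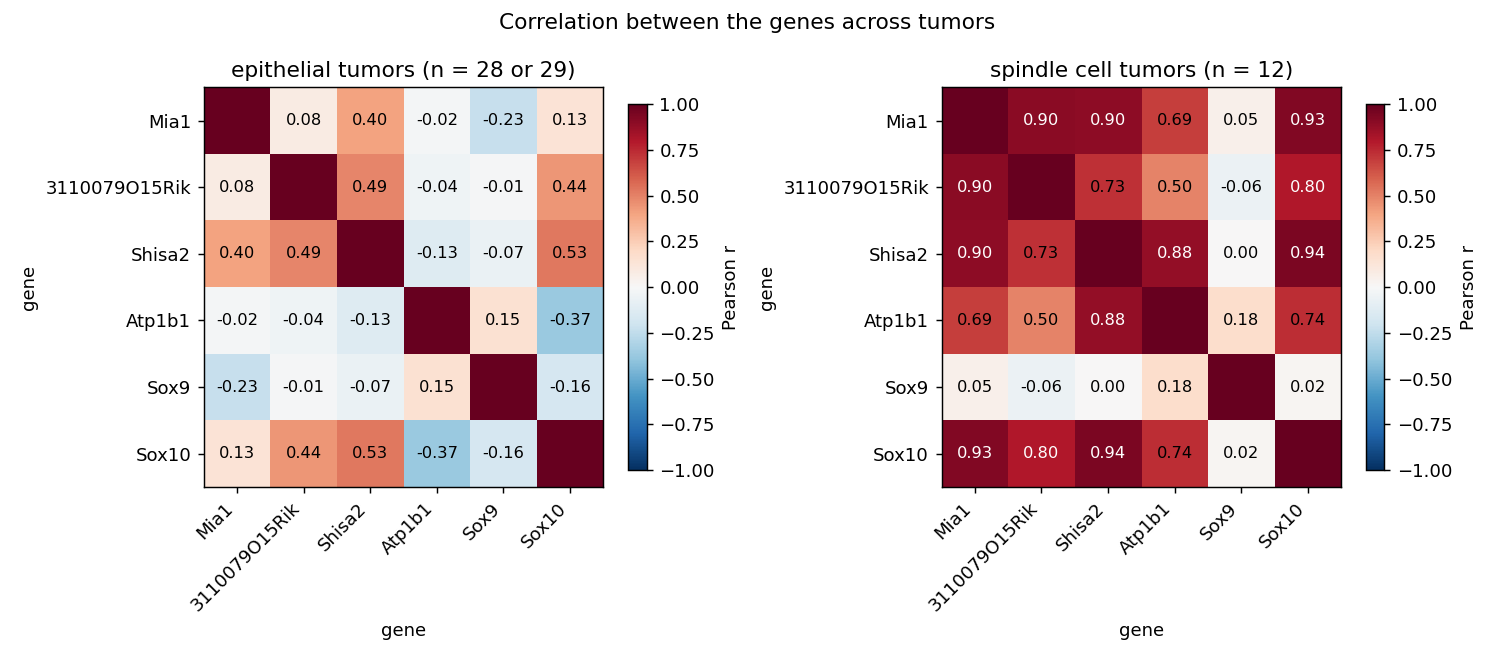
Pearson r between the log2 ratios of each pair of genes across epithelial tumors (left, 28 or 29 tumors) and spindle cell tumors (right, 12 tumors). In spindle cell tumors the 5 genes other than Sox9 form a block with r from 0.50 to 0.94, and in epithelial tumors the highest r is 0.53.

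The genes were chosen partly for low means in these same spindle cell tumors, so the correlations are not independent of that choice, and many other genes were correlated with them as well. An r over 0.7 with Shisa2 was found for 4.49% of 20885 genes and for 4 of the 5 others described here. The same held for 4.59% of genes and 4 of 5 with Sox10, for 5.14% and 3 with Mia1, for 2.83% and 3 with 3110079O15Rik, for 3.13% and 2 with Atp1b1, and for 0.436% and 0 with Sox9. In epithelial tumors an r over 0.7 was found for at most 0.167% of genes with any of them, and for 0 of the 5 others. The cutoff was the same, although a given r arises by chance more often among 12 tumors than among 28 or 29. The difference in correlation between histologies was not tested.

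Across the epithelial tumors 0 of 15 pairs passed an adjusted p under 0.05 by either coefficient in the same permutation test, and 4 had an unadjusted p under 0.05 for Pearson's r. The highest r were those of Shisa2 and Sox10 with 0.53 (rho 0.35, adjusted p = 0.0594 and 0.227), of 3110079O15Rik and Shisa2 with 0.49 (rho 0.50, adjusted p = 0.0607 and 0.104) and of 3110079O15Rik and Sox10 with 0.44 (rho 0.29, adjusted p = 0.0833 and 0.259). Without the 2 farthest tumors they were 0.35, 0.45 and 0.43. Centred on slides, Shisa2 and Sox10 had an r of 0.58 and passed (adjusted p = 0.00435).

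The value of Mia1 and Sox10 in epithelial tumors depended on which tumors were kept. Their r was 0.13 with a rho of 0.38 (adjusted p = 0.771 and 0.227), it was -0.02 without the 2 tumors farthest from the median of Mia1, which leaves MSU_108R in, and it was -0.04 with values centred on slides. Without MSU_108R, a choice made after its value was seen, r was 0.65 (adjusted p = 0.00135). Without MSU_108R, 3 pairs passed, those among Mia1, Shisa2 and Sox10. The low end of these pairs held MSU_17R, with -0.62 for Mia1, -0.73 for Shisa2 and 0.49 for Sox10, and MSU_66L, with -0.16, -0.74 and 1.67, while MSU_62L, with -0.18 for Mia1, had 3.42 for Sox10. In MSU_108R Sox10 was at -1.18 and Shisa2 at -0.26 while Mia1 was at 4.21, next to 4.05 in MSU_107R, so it stood apart by its low Sox10.

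**Figure D4:**
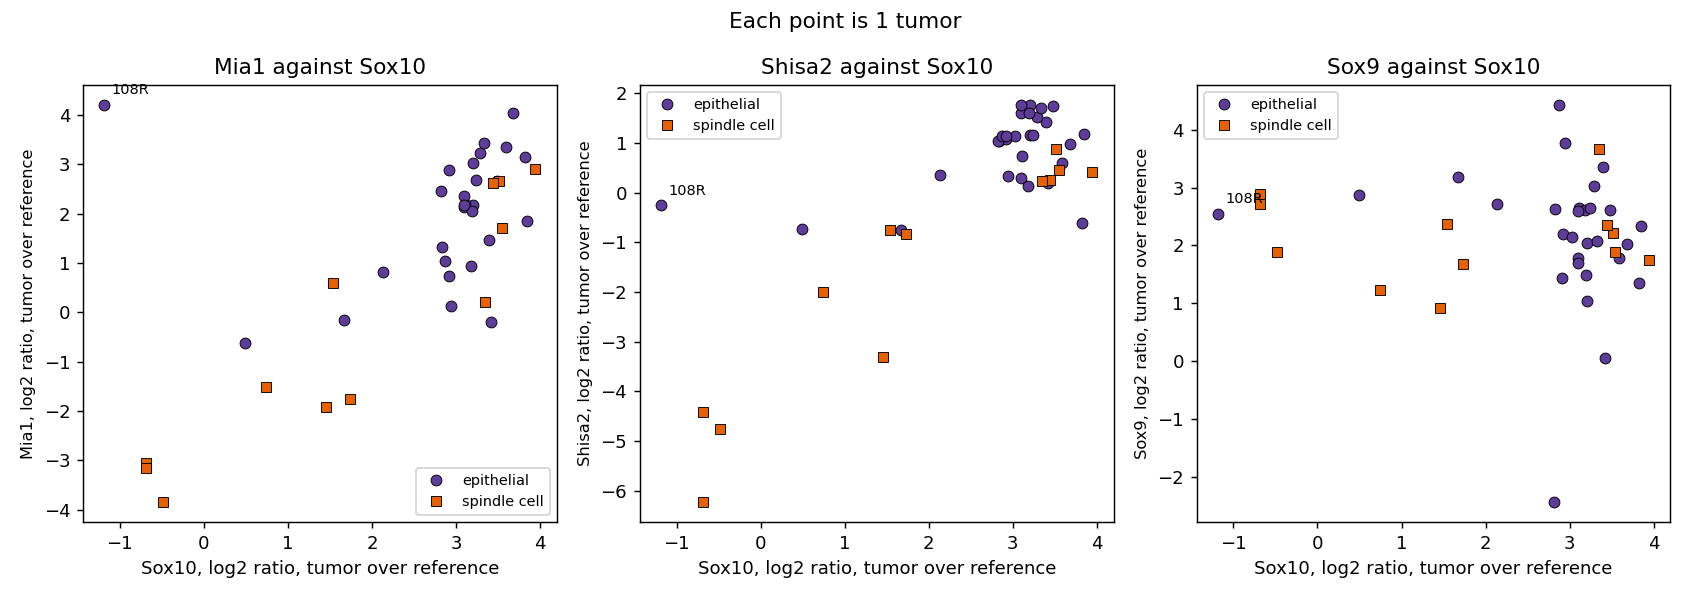
Log2 ratio of Mia1 (left), Shisa2 (middle) and Sox9 (right) against that of Sox10, with 1 point per tumor, circles for epithelial and squares for spindle cell tumors. In spindle cell tumors Mia1 and Shisa2 rise with Sox10 (r of 0.93 and 0.94) and Sox9 does not (r of 0.02), and epithelial tumor MSU_108R stands apart with high Mia1 and low Sox10.

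Some tumors share a number in their labels. In MSU_117L and MSU_117R, both early HFD-LFD tumors, 3110079O15Rik was 3.46 and -2.49, Shisa2 1.19 and -0.60, and Sox10 3.85 and 3.82. Leaving out 1 tumor of each such set, MSU_11R and MSU_117R among the epithelial tumors, let 4 epithelial pairs pass, with an r of 0.65 for Shisa2 and Sox10 (adjusted p = 0.00825). In spindle cell tumors the same step removes MSU_M56LA, and 9 pairs passed again.

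The genes most like each member over the epithelial tumors are given as a description. They were drawn from 12060 genes with a complete set of values and a probe well above background in most epithelial tumors. Sox10 was followed by Slc15a2, a peptide transporter, and Tfap2c, a transcription factor of luminal mammary cells, each with an r of 0.81, and by Tinagl1 with 0.76. Tfap2c kept an r of 0.67 without the 2 tumors farthest in Sox10, and Slc15a2 and Tinagl1 had 0.37. Over the spindle cell tumors, which were not used to pick them, they had an r of 0.93, 0.85 and 0.84 with Sox10. 3110079O15Rik was followed by Ttyh1 with 0.84, 6430573F11Rik with 0.81 and Serpini1, a serpin of neurons, with 0.78, and in spindle cell tumors these had -0.31, 0.59 and 0.27.

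Mia1 was followed by the cell cycle inhibitor Cdkn2a with 0.73, by Ccdc84 with 0.72 and by Csdc2, an RNA-binding protein, with 0.70, and in spindle cell tumors these had -0.21, 0.48 and 0.94. Shisa2 was followed by Dgcr8, a partner of Drosha in microRNA processing, with 0.68, and by Wnk4 and Naaladl2 with 0.67, which had 0.04, 0.69 and 0.75 in spindle cell tumors. Atp1b1 was followed by Lrrc26 with 0.73, and by the mitochondrial gene ND6 and by Madcam1 with 0.72, which had 0.71, -0.14 and 0.62 in spindle cell tumors. Sox9 was followed by Ypel2 and Sirt4 with 0.76 and Gosr1 with 0.74, but without the 2 tumors farthest in Sox9 these were 0.55, 0.27 and 0.31, and in spindle cell tumors 0.06, -0.25 and -0.23. The epithelial r of Slc15a2 and Tinagl1 with Sox10 and of Sirt4 and Gosr1 with Sox9 thus rested in large part on the extreme tumors of those genes.

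Diet and onset were not used to choose the genes, and 0 of the 6 passed the threshold of an adjusted p under 0.10 by limma in any comparison. Between early and late epithelial tumors 0 of 6 were called against 0.143% of all genes. Atp1b1 came nearest, with a mean of -1.63 ± 0.90 (SD, n = 13) when early and of -0.47 ± 1.44 (SD, n = 15) when late, a difference of -1.16 (standard error 0.44, limma adjusted p = 0.265, range over the alternatives 0.241 to 0.811). Its values overlapped, early ones spanning -3.23 to -0.02 and late ones -3.59 to 2.60. 3110079O15Rik differed by -1.22 (standard error 0.79), Mia1 by 0.40 (standard error 0.47), Sox10 by 0.31 (standard error 0.37), Sox9 by 0.10 (standard error 0.44) and Shisa2 by -0.03 (standard error 0.28). With slide as a fixed block the Atp1b1 difference was -0.74, and within the 3 slides that held both onsets it was -1.38, -1.77 and 0.67, each from 4 tumors. On the first of these slides the early tumors were LFD-HFD and the late ones HFD, so onset and regimen cannot be told apart there. The second slide held 1 early and 3 late tumors. With slide as a random block limma called 0 genes in all between early and late tumors and 0 across the regimens.

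Across the 4 regimens of epithelial tumors 0 of 6 were called against 0.473% of all genes, and 0 of the 36 values of single genes between pairs of regimens passed, while 3 had an unadjusted p under 0.05. In those contrasts limma called 1.25% of all genes for HFD-LFD minus LFD, 0.263% for LFD-HFD minus HFD, 0.0287% for HFD-LFD minus HFD and 0% for the others, where 1060 to 1971 genes had an unadjusted p under 0.05. Mia1 was 1.30 ± 1.04 (SD, n = 8) in LFD, 1.76 ± 1.56 (SD, n = 7) in HFD, 2.61 ± 1.40 (SD, n = 7) in HFD-LFD and 2.45 ± 0.69 (SD, n = 6) in LFD-HFD tumors. The largest Mia1 contrast was HFD-LFD minus LFD with 1.31 (standard error 0.61, limma adjusted p = 0.336). Shisa2 was 1.47 ± 0.27 (SD, n = 6) in LFD-HFD tumors, between 1.15 and 1.77, and 0.62 ± 0.82 (SD, n = 8) in HFD tumors, between -0.74 and 1.76. That contrast was 0.85 (standard error 0.38, limma adjusted p = 0.424), and the values overlapped. On slide 1, the only slide that these 2 regimens shared, it cannot be told apart from onset. Sox10 in LFD-HFD tumors was likewise closely packed, at 3.19 ± 0.17 (SD, n = 6). Sox9 means lay between 1.94 and 2.38 over the regimens.

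Between tumors of mice on pubertal HFD (HFD and HFD-LFD, 21 tumors) and on pubertal LFD (20 tumors) 0 of 6 were called against 0.00956% of all genes, with differences from -0.16 for Shisa2 to 0.52 for Mia1 (standard errors 0.56 and 0.62). Between adult HFD and adult LFD epithelial tumors 0 of 6 were called against 0% of all genes by limma, where 837 genes had an unadjusted p under 0.05, and the largest difference was -0.65 for Atp1b1 (standard error 0.47). Adult HFD and adult LFD epithelial tumors shared no slide, so this contrast cannot be told apart from slide. A p that misses the threshold does not show that values were alike.

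Among spindle cell tumors 0 of 6 were called across the 4 regimens against 0% of all genes by limma, where 781 genes had an unadjusted p under 0.05. Between early and late spindle cell tumors 0 of 6 were called against 0% of all genes, where 425 genes had an unadjusted p under 0.05. Mia1 in the early tumors MSU_M84R, MSU_M129L and MSU_M86R was -3.85, -1.92 and 0.22, and in the late ones it ranged from -3.15 to 2.91 with a median of 0.59. The difference of -1.97 had a standard error of 1.44 and the groups overlapped. 3110079O15Rik differed by -1.86 (standard error 1.22) and Shisa2 by -1.25 (standard error 1.48). The pubertal HFD effect differed between histologies for 0 of 6 genes against 0.445% of all genes, and the onset effect for 0 of 6 against 0.00478%. The largest such term was that of onset for Mia1, with -2.37 (standard error 1.24, limma adjusted p = 1).

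**Figure D5:**
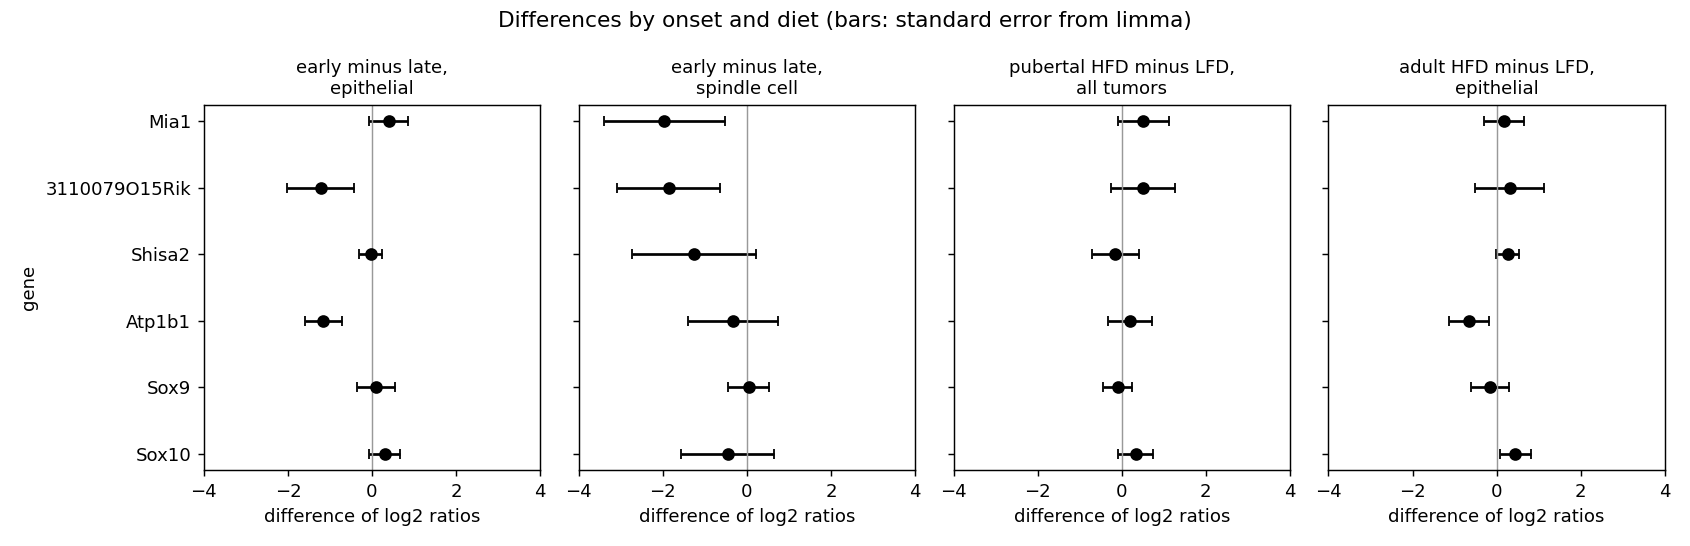
Difference of log2 ratios for each gene between early and late epithelial tumors, early and late spindle cell tumors, pubertal HFD and LFD tumors, and adult HFD and LFD epithelial tumors. Points are differences and bars are standard errors from limma, and the Atp1b1 difference of -1.16 between early and late epithelial tumors lies farthest from 0 in standard errors.

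Genes related to the 6 were counted from lists, in the histology contrast that chose the 6, as a description beside the 20.2% of all genes called there. Of the cartilage genes 1 of 12 was called lower, Col9a3, a chain of cartilage collagen, with 0.99 ± 1.14 (SD, n = 29) in epithelial and -0.61 ± 2.31 (SD, n = 12) in spindle cell tumors, and the list had a median difference of -0.68 against -0.07 for all genes. Only Acan and Comp of this list were higher, with 0.73 and 0.37, and neither was called. Cell type lists described further on had medians from -0.73 (luminal) to 0.75 (mesenchymal), with -0.62 for luminal progenitor and -0.27 for chondrocyte markers. The Col9a3 probe was well above background in 29 of 29 epithelial and 6 of 12 spindle cell tumors. Of 14 genes linked to Sox10 in glia and melanocytes, such as Erbb3 and Mbp, 0 were called. Of 14 sodium pump subunits and regulators 3 were called lower, of which Fxyd7 and Fxyd3 moved most, with -1.17 and -1.06, and 1 higher, Fxyd5, with 0.69. The Fxyd7 probe was well above background in 27 of 29 epithelial tumors but in 4 of 12 spindle cell ones only. Of 4 Shisa genes 1 was called lower, Shisa9, with -1.25, although its probe was well above background in 2 of 12 spindle cell tumors only. Of 2 other Sox genes, Sox5 and Sox8, and of 1 other MIA gene, Mia3, 0 were called.

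In the diet and onset comparisons of these lists 0 genes were called, except in the difference of the pubertal HFD effect between histologies, where Fxyd1 was called with -1.39 (limma adjusted p = 0.0743). The number of genes called in that comparison ranged from 6 to 2364 over the alternatives. Of the cell type lists, Fap of the mesenchymal list was called there too, with -1.71 (limma adjusted p = 0.0441).

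Markers of other cell types were counted in the histology contrast as a description. There limma called 20.2% of all genes in either direction, 1659 of 20913 higher and 2561 lower in spindle cell tumors. Of 13 mesenchymal markers 6 were called higher in spindle cell tumors, among them Snai1 with 1.33 and Col1a1 with 1.22, and 2 of 4 endothelial markers, Pecam1 with 0.87 and Kdr with 0.56. The mesenchymal list had means between -2.01 and -0.20 in epithelial tumors and between -1.78 and 0.30 in spindle cell tumors. Of 9 luminal markers 0 were called, of 6 luminal progenitor markers 1, Elf5, with -1.63, and of 9 Schwann cell markers 1, Ncmap, with -1.17. Of 5 squamous markers 1 was called, Krt10, with 0.49, and of the basal, melanocyte, chondrocyte, adipocyte, skeletal muscle and immune markers 0 were. Of the 4 melanocyte markers, Dct was well above background in 21 of 29 epithelial and 2 of 12 spindle cell tumors. The others were so in 29 and 11 (Tyr), 28 and 8 (Pmel) and 28 and 12 (Mlana). Adipocyte markers were highest in MSU_M76R and MSU_M32L, with list means of 3.61 and 2.06 against a spindle cell median of -4.46.

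Within the 12 spindle cell tumors the genes were also compared with the mean of each list, a choice made after values were seen, over 72 relations, of which 9 passed for r and 12 for rho, by permutation test with Benjamini-Hochberg adjustment. The luminal progenitor list (Kit, Elf5, Aldh1a3, Cd14, Lcn2 and Ltf) correlated with Shisa2 with an r of 0.90 and a rho of 0.88 (adjusted p = 0.00288 and 0.00792), with Atp1b1 with 0.86 and 0.80 (adjusted p = 0.00744 and 0.0256), with Sox10 with 0.81 and 0.86 (adjusted p = 0.0229 and 0.00979) and with Mia1 with 0.81 and 0.87 (adjusted p = 0.0229 and 0.00792). Without the 2 tumors farthest in the list these r were 0.85, 0.88, 0.72 and 0.75. The chondrocyte list (Col2a1, Acan, Matn1, Col9a1 and Comp) correlated with Mia1 with an r of 0.90 and a rho of 0.91 (adjusted p = 0.00144 and 0.00612), with Sox10 with 0.81 and 0.78 (adjusted p = 0.0229 and 0.0354), with 3110079O15Rik with 0.76 and 0.90 (adjusted p = 0.0409 and 0.00612) and with Shisa2 with 0.75 and 0.84 (adjusted p = 0.0422 and 0.0122). In this list Col9a1 varied most, with an SD of 3.55 (n = 12), and Matn1 was well above background in 5 of 12 spindle cell tumors. The share of single markers in these relations was not tested. The luminal list correlated with Shisa2 with an r of 0.77 and a rho of 0.77 (adjusted p = 0.0385 and 0.0354). The mesenchymal list ran the other way, with an r of -0.73 and a rho of -0.70 for Sox10, short of the threshold (adjusted p = 0.0531 and 0.0696). By rho alone Sox10 with the luminal list (rho 0.77, adjusted p = 0.0354), 3110079O15Rik with the luminal progenitor list (rho 0.76, adjusted p = 0.0358) and Atp1b1 with the Schwann cell list (rho 0.76, adjusted p = 0.039) also passed. No list reached the threshold with Sox9.

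The luminal progenitor mean was -0.89 in MSU_M63L, 0.05 in MSU_M129L, 0.55 in MSU_M33R and 0.97 in MSU_M84R, and 2.80 in MSU_M128L and 3.23 in MSU_M18L. In epithelial tumors 0 of 72 relations passed (adjusted p for Pearson's r, permutation test), the nearest being Shisa2 with the chondrocyte list, with an r of 0.57 and a rho of 0.56 (adjusted p = 0.0914 and 0.142). In MSU_108R, low in Sox10 and high in Mia1, the luminal progenitor mean was 0.55 against an epithelial median of 2.36. The part of these cell types in the values of the 6 genes was not tested.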

How the data were processed

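Per the labels, RNA of 41 tumors (Cy5) was hybridized with a common reference (Cy3) on 2-color arrays. The authors deposited scanner output, with the spot intensity, local background, processed signal and log10 ratio of both channels and flags, from Agilent Feature Extraction 11.0.1.1 for epithelial and 10.5.1.1 for spindle cell tumors per the file headers (8.5.1.1 in the submitters' processing notes), and a matrix of log2 ratios that the authors had Lowess normalized, filtered and imputed, used as an alternative. The deposited log10 ratios were not used for any result.

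From the intensities, log2 of the processed signals, Cy5 over Cy3, was taken in R 4.3.3. The processed signals are background-subtracted and dye-normalized by the scanner software. Control spots and spots marked as outliers were left out, which left 1.19% of gene values missing, and spots of a probe were averaged. A probe was used where Cy3 and Cy5 both exceeded 10 on 80% of the arrays or more, and each of 20913 genes was read from its probe of highest mean signal. Differences were tested with lmFit and eBayes of limma 3.58.1 across all genes with Benjamini-Hochberg adjustment, at 0.10, or 0.05 between histologies. The SAM statistic named in the methods was not run. Correlations within a histology used 100000 permutations, 2-sided, with 1e-05 as the smallest p they can give. The fits were tested on simulated data.

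The 6 genes and all gene lists were chosen with earlier results of these data known. The text names the 6 genes, the 3 genes most correlated with each over epithelial tumors, and up to 2 genes per list and direction with the largest difference, with other single genes named as background. The older array names were matched to current symbols through RefSeq, and promoter sequences are those of RefSeq for GRCm38.p6 in a table that holds 3 of the 6. Alternatives changed the signals, normalization, outlier spots, filter, probe choice, slide, labels, threshold and samples. P-values measure the spread between tumors, of which some may share a mouse.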

Additional observations from a re-analysis of the deposited data

Results flagged for a closer look

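In 5 of the 30 sets of a gene and a group of 6 to 9 tumors that were examined, 1 tumor lay far from the others of its group, measured as its gap to the nearest one over the range of the group. Chance gives about 1 in 20 such sets. MSU_108R and Sox10 each recur among the 5, so the sets are not independent and no excess over chance is read from them. Sox10 was -1.18 in MSU_108R, where the other HFD-LFD epithelial tumors had 2.94 to 3.85, and in the same tumor Atp1b1 was 2.60 against -2.14 to -0.23. Sox10 was 0.49 in MSU_17R against 2.13 to 3.11 in the other LFD epithelial tumors, and 1.67 in MSU_66L against 3.03 to 3.59 in the other HFD ones. Sox9 was -2.45 in MSU_13L against 1.78 to 4.43 in the other LFD epithelial tumors. On the array of MSU_108R 52.4% of probes were well above background in Cy5, fewer than on any other of the 41, and its part in these values was not tested.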

How the results depend on the processing

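The number of the 6 genes called was 0 for every diet and onset comparison and both interactions under all alternatives run, and 4 or, with Sox10, 5 between histologies. Of 666 single differences by diet and onset none became called, the lowest adjusted p (limma) being 0.241, and 43 changed sign without passing. Sox10 passed between histologies in 10 of 25 settings, with differences from -1.73 in the authors' matrix to -0.88 without MSU_M33R or MSU_M63L. The genes were chosen on the contrast between histologies, so its counts are a description and support nothing. Counts over all genes moved more: 30 between early and late epithelial tumors became 59 with outlier spots kept and 0 with slide as a random block, 99 across their regimens 218 in the matrix and 0 with that block, 2 by pubertal diet 0 in the matrix and 8 without MSU_42L4B, MSU_60L and MSU_M86R, 0 across spindle cell regimens 7 without MSU_M84R, 93 for the pubertal interaction 6 without MSU_M76R and 2364 with normexp and loess, 1 for the onset interaction 0 with normexp and 13 in the matrix, and 4220 between histologies 7894 without a filter and 2550 with the random block. Epithelial pairs that passed numbered 0, but 2 in the matrix, 1 with values centred on their slide, 4 with 1 tumor per shared label number and 3 without MSU_108R, the last chosen after seeing the data. The cause was not tested. Spindle cell pairs that passed numbered 7 to 9 in all settings, including those chosen after seeing the data (each tumor left out in turn, and MSU_M32L, MSU_M76R and MSU_M86R left out together), and 8 of 315 single values fell short, those of Atp1b1 with Mia1 or Sox10 and, in the matrix, of 3110079O15Rik with Sox10. No paired analysis was possible because the labels number the tumors and the groups compared share at most 1 such number. Shisa2 was not well above background in 1 spindle cell tumor.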
